A study of Mus musculus with 6 samples.

Results

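The integrated stress response was followed in brown adipose tissue (BAT) through 10 genes chosen by symbol: the transcription factors *Atf4*, *Atf5* and *Ddit3*, the pseudokinase gene *Trib3*, the enzyme genes *Asns*, *Psat1*, *Phgdh* and *Chac1*, and the genes of the secreted factors *Fgf21* and *Gdf15*. All 10 had a probe on the array, among 23462 genes that could be matched. They were covered by 14 probes, 6 genes by 1 probe each and 4 genes (*Asns*, *Atf4*, *Atf5* and *Psat1*) by 2. Every probe was matched through the RefSeq transcript accession that the array annotation gives it.

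The samples were BAT of male wild-type (WT) and miR-22 knockout (KO) mice at 8 weeks of age, 3 mice per genotype and 1 mouse per Agilent array with a single dye, on which mRNA was measured. The KO mice lacked miR-22 throughout the body, so BAT was not the only tissue affected. No allele, agent or treatment beyond the genotype is given in the labels. The comparison asked which transcripts differed in BAT that had developed without miR-22, and the mice are named here WT1 to WT3 and KO1 to KO3.

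In the integrated stress response, kinases that sense a shortage of amino acids, misfolded protein in the endoplasmic reticulum, double-stranded RNA or haem deficiency phosphorylate the translation factor eIF2. General translation falls while that of the *Atf4* mRNA rises, and ATF4 protein then switches on genes for amino acid synthesis, amino acid uptake and tRNA charging. Much of this control acts on translation, which an array does not measure. In mitochondrial disease and in thermogenic fat, FGF21 and GDF15 are known as hormones that such stress releases.

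The mature forms of the deleted miRNA are shown because they are what the KO mice lacked. They lie on the plus strand of GRCm38.p6 at chr11:75463772-75463793 for the 3p form and at chr11:75463734-75463755 for the 5p form. In the RefSeq sequences, written 5′ to 3′, capitals mark the seed, bases 2 to 8, with which a miRNA pairs with its target mRNA.
mmu-miR-22-3p: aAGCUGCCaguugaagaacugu
mmu-miR-22-5p: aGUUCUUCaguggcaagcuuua
The seeds of the 3p and 5p forms differ, and no search for their sites in the mRNAs of the 10 genes was made here.

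ATF4 with a C/EBP partner binds the C/EBP-ATF response element, and its core letters, TGATGNAA on either strand, were searched in the RefSeq promoter windows, which run from 250 bases before to 50 bases after each transcript start. The promoters of *Asns*, *Chac1*, *Fgf21* and *Trib3* held the letters, 4 of 10 member genes or 4 of 13 windows (30.8%), against 1304 of 32851 windows (3.97%) of all genes. The stretches of 30 bases around each match are shown on the gene's own strand, from GRCm38.p6, because these 4 genes can be read beside the 6 without the letters. Capitals mark the match.
Asns, chr6:7693214-7693243, minus strand: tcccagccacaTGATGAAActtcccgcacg
Chac1, chr2:119351038-119351067, plus strand: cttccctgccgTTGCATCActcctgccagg
Fgf21, chr7:45615611-45615640, minus strand: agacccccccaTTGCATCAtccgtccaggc
Trib3, chr2:152344028-152344057, minus strand: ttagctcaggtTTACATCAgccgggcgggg
The match began 23 bases before the start in *Asns*, 193 before in *Chac1* and 139 before in *Fgf21*, whereas in *Trib3* it lay 14 bases after the start. In *Chac1*, *Fgf21* and *Trib3* the letters read on the strand opposite to the gene. The genes of the tRNA synthetases, which charge tRNAs with their amino acids, held the letters in 5 of 8 promoters, and those of the eIF2 kinases, phosphatases and eIF2B in 0 of 13. A match describes a sequence and is not a measured binding site, and a window without a match says only that these letters are not in it.

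Levels are given as scaled log2 signal, the log2 of a spot's processed intensity relative to the 75th percentile on that array, and differences as KO minus WT on the same scale. A value of 0 is thus the brightness of the 75th percentile, and levels of different probes are not comparable. The 75th percentile was 1984, 1435 and 1602 in WT and 2538, 2633 and 1599 in KO mice, highest in KO1 and KO2. On the arrays, 55.8 to 66.5% of probes were well above background. Between 4.87 and 17.1% were marked by the scanner software as uneven or outlying, most often on the arrays of WT3 and KO1, and such marked values were left out of the tests. WT1 and WT2 lay in the first row of the slide and the other 4 mice in the second, so row and genotype overlapped in part. A fit with the slide row as a block therefore sets WT3 alone against the KO mice, as the second row alone does. Where the WT3 value was marked, the block cannot adjust for row. All 10 brown adipocyte markers were well above background on every array, with a mean of 2.73, 3.03 and 2.87 in WT and 2.74, 2.32 and 2.88 in KO mice. Among them, *Ucp1*, the uncoupling protein of thermogenesis, had scaled log2 signals of 5.51, 5.85 and 5.53 in WT and 5.10, 5 and 5.65 in KO mice. *Prdm16*, another marker, had -0.53, -0.57 and -0.22 in WT and 0.98, -0.02 and -0.64 in KO mice, so the markers did not all lean the same way. Markers of skeletal muscle varied most, with a mean over 15 genes of 2.54, 1.71 and -5.17 in WT and 0.13, 3.55 and 1.67 in KO mice. No probe for mature miR-22 was used. The probe of its host gene *Mir22hg* gave 1.20, 1.69 and 1.22 in WT and 2.02, 2.11 and 2.23 in KO mice, which is 0.75 higher in KO (SE 0.18, limma adjusted p = 0.108). Where this probe lies relative to the deletion was not established, so it does not check the genotype.

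None of the 10 stress response genes passed the test for a change between genotypes. With limma, 0 of 10 genes passed an unadjusted p of 0.05 in either direction, against 8.82% of the 14711 tested genes that were lower and 10% that were higher in KO mice. After Benjamini-Hochberg adjustment 0 of 10 passed, against 0.184% of all tested genes, and the methods' t-test on the same values also called 0. By probe, 0 of 13 tested probes passed an unadjusted p of 0.05 with limma, against 6.74% of all tested probes lower and 9.7% higher, and 0 passed after adjustment, against 0.109%. The differences lay on both sides of zero, 6 of 10 below it, with a median of -0.10 beside -0.03 over all tested genes. The 3 mice of a genotype were labelled as separate animals, and the tests measured only the spread among these 6.

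**Figure D1:**
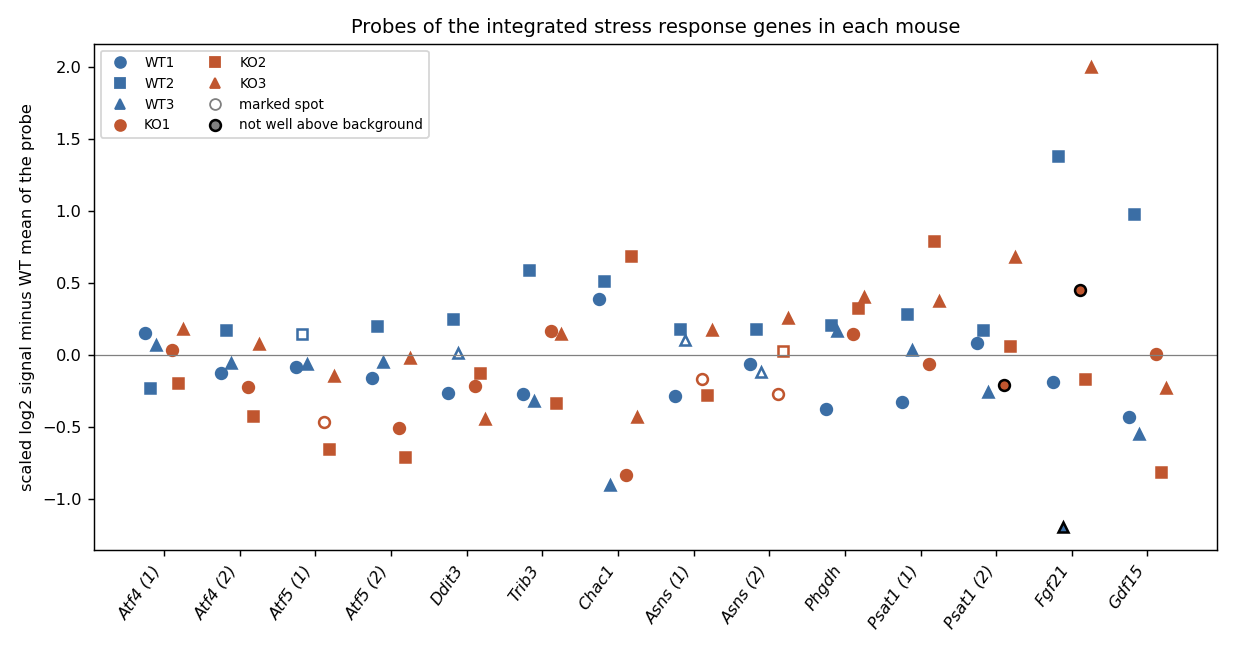
Scaled log2 signal of each of the 14 probes in each mouse, drawn as the difference from the WT mean of that probe (blue WT, orange KO; hollow symbols are marked spots, black outlines are signals not well above background; numbers in brackets tell probes of a gene apart). The genotypes overlap at nearly every probe, WT2 is often the highest WT mouse, and *Fgf21*, *Chac1* and *Gdf15* spread most.

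*Atf4* (chr15:80255184-80257545) encodes the transcription factor at the centre of the response. Its brighter probe had scaled log2 signals of 3.85, 4.15 and 3.92 in WT and 3.75, 3.55 and 4.05 in KO mice. KO1 and KO2 lay below all WT mice and KO3 lay among them. The means were 3.98 ± 0.16 (SD, n = 3) in WT and 3.78 ± 0.25 (SD, n = 3) in KO mice, a difference of -0.19 (SE 0.18, 95% confidence interval -0.61 to 0.22, limma adjusted p = 0.569). Its sign changed with the scaling, to 0.04 after quantile normalization and 0.05 with the authors' processed values. The other *Atf4* probe gave 3.64, 3.26 and 3.56 in WT and 3.52, 3.29 and 3.67 in KO mice, with a difference of 0.01 (SE 0.18, limma adjusted p = 0.987). In WT2 the brighter probe had its highest value and the other its lowest, so the probes did not order the mice alike.

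*Atf5* (chr7:44812256-44816658) encodes a related factor known for its part in the mitochondrial stress response, and it had the smallest p of the members. Its brighter probe had scaled log2 signals of 4.20, 4.56 and 4.31 in WT and 3.85, 3.65 and 4.34 in KO mice. KO1 and KO2 were below every WT mouse, and KO3 was within the WT range. The means were 4.36 ± 0.19 (SD, n = 3) in WT and 3.95 ± 0.36 (SD, n = 3) in KO mice, a difference of -0.41 (SE 0.21, 95% confidence interval -0.91 to 0.09, limma adjusted p = 0.344), or a KO signal of 0.752 times the WT signal. At the other probe the values were 4.25, 4.48 and 4.27 in WT and 3.87, 3.68 and 4.19 in KO mice, of which those of WT2 and KO1 were marked. Here the genotypes did not overlap, with or without the marked values, which was true of 11.7% of all probes in the direction of lower KO values among those without marked spots. The difference at that probe was -0.32 (SE 0.25, limma adjusted p = 0.561). *Atf5* was below zero in 21 of 21 settings tried, and it passed an unadjusted p of 0.05 in 1, without KO3, at -0.61 (limma adjusted p = 0.222). The difference was smaller without KO2, at -0.26, after quantile normalization, at -0.17, and with the authors' processed values, at -0.15.

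*Ddit3* (chr10:127290793-127296291) encodes CHOP, the factor linked to cell death in prolonged stress. Its scaled log2 signals were 2.35 and 2.87 in WT1 and WT2, 2.63 at a marked spot in WT3, and 2.40, 2.49 and 2.17 in KO mice. KO3 was the lowest and the other KO mice lay within the WT range. The difference was -0.25 (SE 0.22, 95% confidence interval -0.79 to 0.28, limma adjusted p = 0.549), fitted without WT3.

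*Trib3* (chr2:152337425-152344060) encodes a pseudokinase that ATF4 and CHOP induce and that restrains both. WT2, at 1.01, stood apart from WT1 and WT3, at 0.15 and 0.10, while KO mice had 0.59, 0.09 and 0.57. The difference was 0.00 (SE 0.28, 95% confidence interval -0.67 to 0.67, limma adjusted p = 0.999). A shift of up to 0.67 in either direction was thus within the interval that the spread among these mice allows.

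Of the enzyme genes, *Asns* (chr6:7675165-7693209) makes asparagine and is a classical ATF4 target. At its brighter probe the unmarked scaled log2 signals were 2.33 and 2.80 in WT1 and WT2 and 2.34 and 2.79 in KO2 and KO3. The marked values, 2.72 in WT3 and 2.45 in KO1, fell between them. The genotypes covered almost the same range, and the difference fitted without the marked values was 0.00 (SE 0.27, 95% confidence interval -0.70 to 0.70, limma adjusted p = 0.994). The other *Asns* probe was marked in WT3, KO1 and KO2 and was not tested. It read 1.38, 1.62 and 1.32 in WT and 1.17, 1.47 and 1.70 in KO mice, marked values included, which again overlapped.

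*Phgdh* (chr3:98313171-98339969) and *Psat1* (chr19:15905123-15925059) encode the enzymes that open the route from glycolysis to serine. *Phgdh* had scaled log2 signals of 0.59, 1.17 and 1.13 in WT and 1.11, 1.29 and 1.37 in KO mice. Only KO1 lay within the WT range, and the low value of WT1 made most of the WT spread. The difference was 0.29 (SE 0.19, 95% confidence interval -0.17 to 0.75, limma adjusted p = 0.441).

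The brighter *Psat1* probe read -1.92, -1.31 and -1.56 in WT and -1.66, -0.80 and -1.22 in KO mice. KO2 and KO3 were above every WT mouse and KO1 was not. The difference was 0.37 (SE 0.26, 95% confidence interval -0.25 to 0.99, limma adjusted p = 0.465). A dimmer *Psat1* probe, not well above background in KO1, had -4.54, -4.45 and -4.88 in WT and -4.83, -4.56 and -3.94 in KO mice, with a difference of 0.18 (SE 0.26, limma adjusted p = 0.747). By gene, both were above zero in 21 of 21 settings and passed an unadjusted p of 0.05 in 0 of them with limma or the methods' t-test, but *Phgdh* dropped to 0.10 without WT1 and *Psat1* to 0.16 without KO2. The dimmer *Psat1* probe ranged from -0.07 to 0.44 and was below zero in 3 of 19 settings.

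*Psph* encodes the phosphatase of the last step to serine and belongs to a wider list of ATF4 targets described below. Unlike *Phgdh* and *Psat1*, which passed no threshold, it was lower in KO mice at the unadjusted one. Its scaled log2 signals were 1.96, 2.47 and 2.23 in WT and 1.41, 1.24 and 1.31 in KO mice. All KO mice were below all WT mice, as in 14.7% of genes with 6 unmarked values. The difference was -0.90 (SE 0.17, 95% confidence interval -1.30 to -0.51), past the unadjusted threshold of 0.05 but not the adjusted one (limma adjusted p = 0.0743). It stayed between -1.03 and -0.78 over the 21 settings and passed the unadjusted threshold in each of them, with adjusted p from 0.0194 to 0.554 (limma or the methods' t-test). Within the second row of the slide, with 1 WT and 3 KO mice, it was -0.91.

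**Figure D2:**
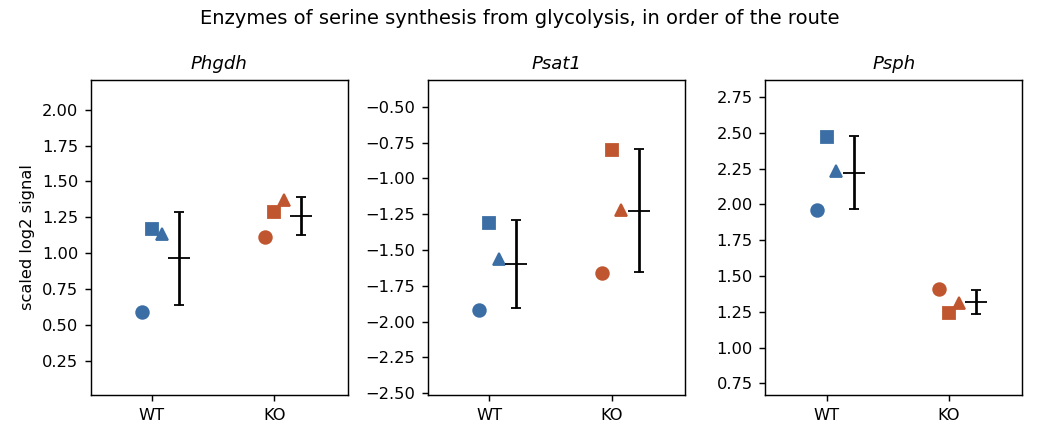
Scaled log2 signal of *Phgdh*, *Psat1* (brighter probe) and *Psph* in WT mice (blue) and KO mice (orange), 1 symbol per mouse, with the mean and SD of each genotype in black; the 3 axes span the same number of log2 units at different levels. The genotypes overlap for *Phgdh* and *Psat1*, and for *Psph* the KO mice, at 1.24 to 1.41, lie below the WT mice, at 1.96 to 2.47.

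*Chac1* (chr2:119351242-119354326), which encodes an enzyme that degrades glutathione, differed more among mice of a genotype than between genotypes. It read -1.94, -1.81 and -3.23 in WT and -3.16, -1.64 and -2.76 in KO mice. WT3 and KO1 were the lowest and KO2 was the highest, and these 3 mice held the same places for the mean of the skeletal muscle markers. The difference was -0.19 (SE 0.50, 95% confidence interval -1.39 to 1, limma adjusted p = 0.847). With the muscle marker mean as a covariate it was -0.65 (limma adjusted p = 0.315). With the slide row as a block, which sets WT3 alone against the KO mice, it was 0.72. Its direction was not settled. In whole tissue, fewer cells of a type and less RNA per cell cannot be told apart.

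*Fgf21* (chr7:45613890-45615490), the gene of a hormone made by liver and by stressed or active fat, was close to background. Its scaled log2 signals were -5.69, -4.12 and -6.70 in WT and -5.05, -5.67 and -3.50 in KO mice, and the signal was not well above background in WT3 and KO1. KO3 was the highest mouse and WT2 the next. The difference of 0.76 carried an error of the same size (SE 0.76, 95% confidence interval -1.04 to 2.57, limma adjusted p = 0.608), so the interval ran from a fall to a larger rise at this brightness. It was 1.96 with the slide row as a block, where WT3 is the only WT mouse compared, and 0.08 after normexp background correction. Of 5 liver markers, 1 was above background on all arrays and 2 on none, and their mean was -6.22, -5.82 and -6.26 in WT and -5.54, -5.72 and -4.87 in KO mice, highest in KO3 as *Fgf21* was. Their part in the *Fgf21* values was not tested.

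*Gdf15* (chr8:70629393-70632470), the gene of a stress hormone that acts on the hindbrain, read -2.95, -1.54 and -3.07 in WT and -2.51, -3.33 and -2.75 in KO mice. WT2 alone was high, and the other 5 mice lay between -3.33 and -2.51. The difference was -0.34 (SE 0.43, 95% confidence interval -1.37 to 0.68, limma adjusted p = 0.683), and without WT2 it was 0.15.

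**Figure D3:**
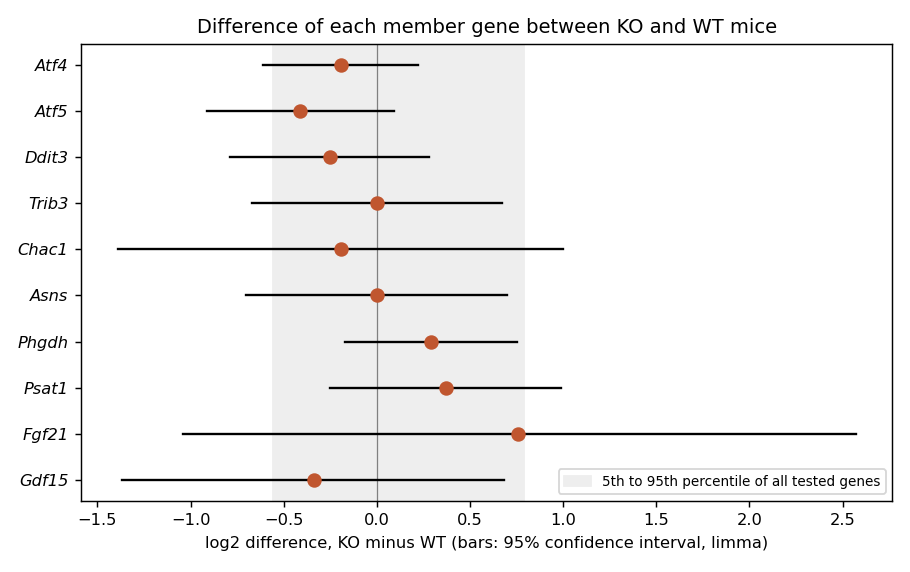
Log2 difference between KO and WT mice of each of the 10 genes (point) with its 95% confidence interval (bar), by limma; the grey band holds the 5th to 95th percentile of all 14711 tested genes, -0.56 to 0.79. Every interval crosses zero, and the intervals of *Fgf21*, *Chac1* and *Gdf15* are the widest.

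By mouse, no animal was high or low for all members. WT2 had the highest value of 6 of the 10 genes, among them *Atf4*, *Atf5*, *Ddit3*, *Trib3* and *Gdf15*, but the lowest value at the other *Atf4* probe. KO2 had the highest value of 2 genes, *Chac1* and *Psat1*, and the lowest of 4, *Atf4*, *Atf5*, *Trib3* and *Gdf15*. The median deviation of the members from their mean over mice was -0.25, 0.41 and -0.23 in WT and -0.05, -0.27 and 0.18 in KO mice, beside -0.02, 0.09 and 0.00 and -0.05, -0.04 and 0.05 over all tested genes. Without WT2 the median difference of the 10 genes was 0.19 in place of -0.10.

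**Figure D4:**
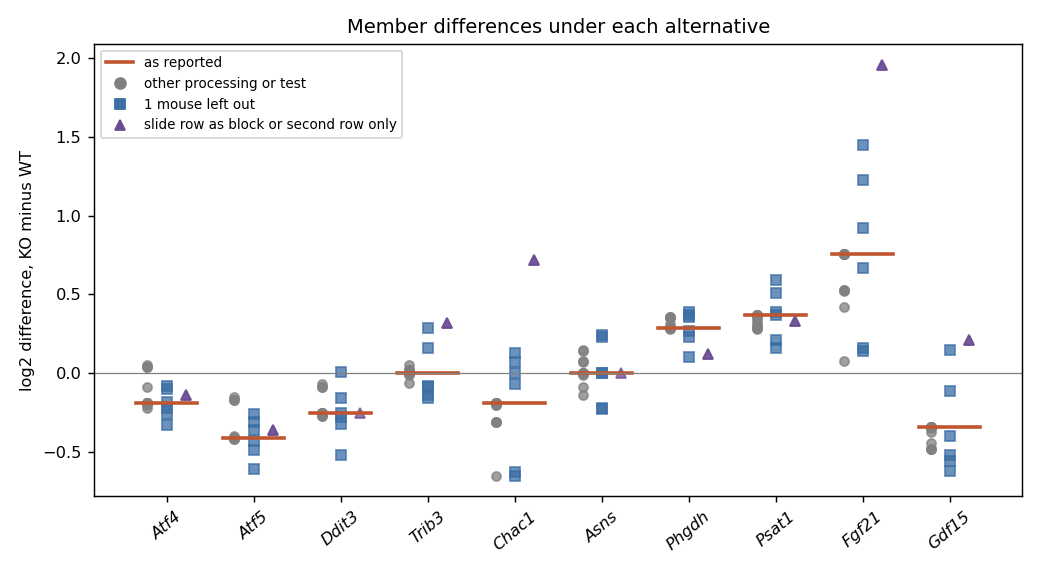
Log2 difference between KO and WT mice of each of the 10 genes as reported (orange line) and under the alternatives: other processing or test (grey), 1 mouse left out (blue), and slide row as a block or the second row only (purple). *Atf5* stays below zero and *Phgdh*, *Psat1* and *Fgf21* stay above it, while the other 6 genes have values on both sides.

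Around the members, 99 further genes of the pathway were listed by role, of which 74 could be tested. With limma, 5 of 74 (6.76%) were lower and 4 (5.41%) higher at an unadjusted p of 0.05, beside 8.82 and 10% of all tested genes, and 0 passed the adjusted threshold. The median difference was -0.09 and 49 of 74 lay below zero (66.2%), beside -0.03 and 52.9% over all tested genes. With marked spots kept, 94 could be tested and 16 were lower, beside 11.1% of all genes under that setting. With the slide row as a block, 2 were lower (*Psph* and *Dele1*) and 0 higher, beside 3 and 5.93% of all genes. *Dele1*, marked in WT3, was not adjusted by the block. In the sentences that follow, a gene is said to fall or rise where it passed the unadjusted threshold. The 16 calls with marked spots kept included 5 of 21 tested genes in the list of other endoplasmic reticulum stress genes, 5 of 14 ATF4-induced regulators and 3 of 11 mitochondrial chaperones and proteases. When marked spots were kept and the arrays were quantile normalized, an alternative added after seeing the data, those counts were 1 of 21, 3 of 14 and 0 of 11, and 7 of 94 were lower in all, beside 10.6% of all genes.

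Upstream of ATF4, the list of eIF2 kinases, phosphatases and eIF2B subunits had 14 of 17 genes tested, with 1 lower and 0 higher and a median of -0.05. None of the kinases passed the unadjusted threshold. *Eif2ak1*, which senses haem and relayed mitochondrial stress, differed by -0.02 (SE 0.21), *Eif2ak2*, the sensor of double-stranded RNA, by 0.18 (SE 0.16), *Eif2ak3*, the kinase of the endoplasmic reticulum, by -0.07 (SE 0.17) and *Eif2ak4*, the sensor of uncharged tRNA, by 0.01 (SE 0.14). *Dele1*, whose protein carries the signal of mitochondrial stress to that haem-sensing kinase, was the gene that fell. It read -0.05 and 0.15 in WT1 and WT2 and -0.54, -0.33 and -0.65 in KO mice, with WT3 marked, and the difference was -0.56 (SE 0.17, limma adjusted p = 0.190).

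Downstream, 13 of 15 genes of further ATF4-induced regulators were tested. Of these, 2 fell (15.4%, beside 8.82% of all genes) and 1 rose. In all 11 lay below zero, and the median was -0.31, which became -0.11 after quantile normalization and -0.12 without KO2. *Eif4ebp1*, which encodes a repressor of cap-dependent translation, read 4.03, 4.42 and 4.11 in WT and 3.59 and 3.52 in KO2 and KO3 (difference -0.63, SE 0.18, limma adjusted p = 0.164). *Slc38a2*, a neutral amino acid transporter listed here and among the transporters, read 2.06, 1.89 and 1.66 in WT and 1.45, 1.35 and 1.23 in KO mice (difference -0.53, SE 0.15, limma adjusted p = 0.154). For *Slc38a2* all KO mice were below all WT mice, as in 14.7% of genes with 6 unmarked values. For *Eif4ebp1* this held for the 2 KO mice with an unmarked value, a smaller set to which that share does not apply. Neither passed the unadjusted threshold with the slide row as a block (-0.55 for *Eif4ebp1* and -0.32 for *Slc38a2*). *Niban1*, known as a stress-induced regulator of translation, rose by 0.48 (SE 0.17, limma adjusted p = 0.206).

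Among the 11 enzyme genes of amino acid and folate metabolism, all tested, 1 fell (*Psph*, 9.09%) and 2 rose (18.2%), with a median of 0.09. Of all tested genes, 8.82% were lower and 10% higher. *Mthfd1l*, a mitochondrial folate enzyme, read -3.79, -4.43 and -3.81 in WT and -3.29, -2.53 and -3.05 in KO mice. All KO mice were above all WT mice, as in 14.2% of genes with 6 unmarked values, and the difference was 1.05 (SE 0.26, limma adjusted p = 0.121). Its probe was dim, though well above background on all 6 arrays, and the difference was 0.58 after normexp background correction. *Pck2*, the mitochondrial enzyme that makes phosphoenolpyruvate, read 0.62, 0.68 and 0.82 in WT and 0.94, 1.82 and 1.42 in KO mice, again without overlap, with a difference of 0.69 (SE 0.23, limma adjusted p = 0.195) and of 1.11 at its other probe. These calls, at the unadjusted threshold, lay in both directions within a list of genes that ATF4 is known to induce.

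Of the amino acid transporters, 6 of 10 were tested and *Slc38a2* alone passed the unadjusted threshold. Of the tRNA synthetases, 9 were tested and 0 passed it in either direction with limma, with differences between -0.23 and 0.19. The members ranged from -0.41 to 0.76. In other branches of the endoplasmic reticulum stress response 14 of 21 genes were tested and 1 fell, *Atf6*, the gene of a membrane-bound stress sensor, by 0.33 on the log2 scale (SE 0.12, limma adjusted p = 0.230). In this list *Hspa5*, *Hsp90b1*, *Calr* and *Manf* were among the untested, bright on all arrays but with too many marked values. *Xbp1* differed by -0.01 at the probe that stood for it, but by 0.90 at another (SE 0.24, limma adjusted p = 0.185 by probe). Of the mitochondrial chaperones and proteases 5 of 11 were tested and 0 passed with limma. The median was -0.24, which became -0.02 after quantile normalization and -0.10 with the mean of a gene's probes. The untested genes, among them *Hspd1*, *Hspe1* and *Hspa9*, were well above background on all arrays but had too many marked values. With marked spots kept all 11 were tested and the median was -0.34, or -0.17 when the arrays were also quantile normalized.

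The receptors through which the hormones act were listed as well. *Klb*, the co-receptor for FGF21, rose by 0.58 (SE 0.22, limma adjusted p = 0.246), a call that was lost without WT1, WT2, WT3 or KO3, with differences from 0.32 to 0.83 when 1 mouse was left out, and with the slide row as a block (0.45). In contrast, *Fgfr1*, its partner kinase, differed by -0.05 (SE 0.21). The signal transducer of the GDF15 receptor, *Ret*, differed by -0.71 (SE 0.38, limma adjusted p = 0.356) at a dim probe, and *Gfral*, the GDF15 receptor itself, known from the hindbrain, was above background on 0 arrays.

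The calls in the wider lists differed in how often they held over the settings. Past the unadjusted threshold were *Psph* in 21 of 21 settings, *Slc38a2* and *Mthfd1l* in 19, *Eif4ebp1* in 18, *Niban1* in 15, *Pck2* in 14, *Klb* in 12 and *Atf6* in 11 of 21, and *Dele1* in 17 of 20. With the slide row as a block only *Psph* and *Dele1* of these 9 passed. The block could not adjust *Dele1*, which had no unmarked WT value in the second row and stayed at -0.56. That setting is still counted in its 17 of 20. Leaving out 1 mouse ended the call of *Eif4ebp1* (KO3), *Niban1* (WT1, WT3 or KO3), *Dele1* (WT2, KO1 or KO3), *Pck2* (WT1, WT2, KO2 or KO3) and *Atf6* (any mouse).

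**Figure D5:**
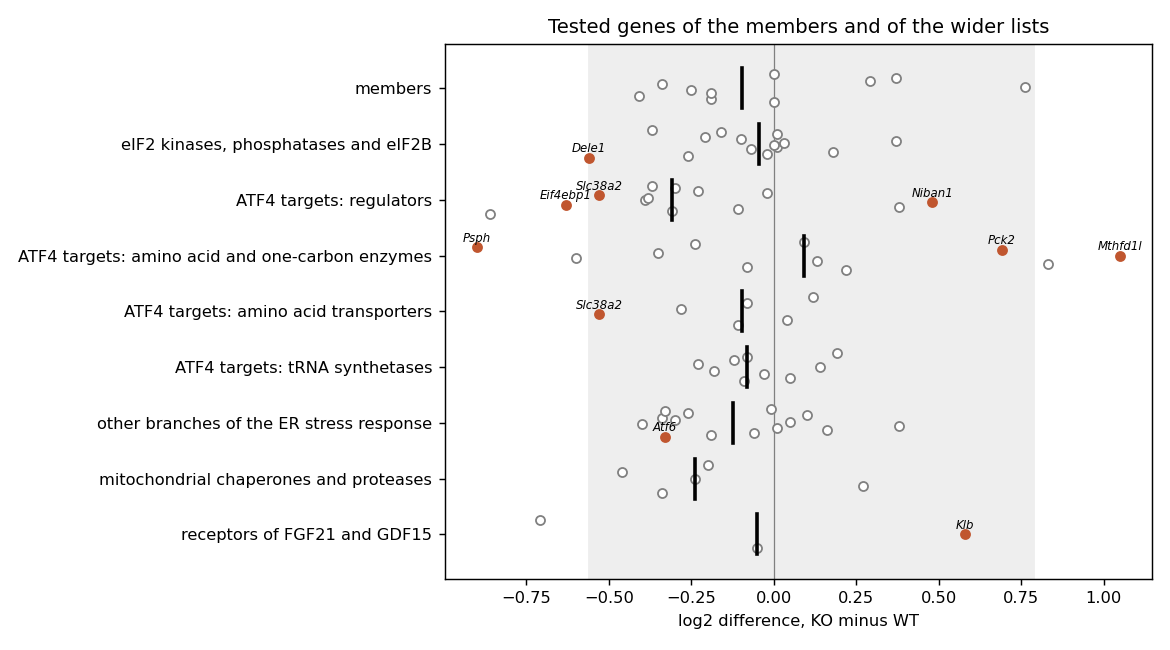
Log2 difference between KO and WT mice of every tested gene of the members and of the wider lists; filled and named points passed an unadjusted p of 0.05 with limma, open points did not, black lines are list medians, and the grey band holds the 5th to 95th percentile of all tested genes. No member is filled, and *Psph* and *Mthfd1l* lie farthest apart among the enzyme genes.

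Genes whose promoter held the letters of the response element were set beside those whose promoter did not. Of the members and wider lists with a promoter window, 16 tested genes held them, of which 0 fell and 1, *Pck2*, rose, and 54 tested genes did not, of which 2 fell and 3 rose. Over all tested genes with the letters, 378 in number, 10.6% were lower and 12.4% higher in KO mice, beside 8.96 and 9.93% of all 11647 tested genes with a promoter window.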

How the data were processed

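BAT of 3 WT and 3 KO mice was measured on 6 arrays. The authors deposited spot intensity values, which per the file headers came from Agilent Feature Extraction 11.5.1.1 (version 10.7 in the submitters' processing notes), background-subtracted and spatially detrended. A processed table of log2 values for 27497 probes was deposited too. Its processing is not given in the sources used here, and it served as an alternative.

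For each array, log2 processed intensity was centred on the 75th percentile, control spots excluded. Marked spots were left out. Probes needed to be well above background on at least 3 arrays with at least 2 unmarked values per group, and the brightest such probe stood for a gene. Of 56605 probes, 33767 (59.7%) matched a gene of RefSeq on GRCm38.p6. Array number limits the precision, which is given as the SE. Genotypes, taken from the labels, were compared without pairing by lmFit and eBayes of limma 3.58.1 (R 4.3.3, data.table, version 1.17.8), two-sided, with Benjamini-Hochberg adjustment over all tested genes or all tested probes. The fit was tested on simulated data. Significance analysis of microarrays, which the methods name, was not run here.

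The members and the gene lists were chosen with earlier results of these data known. Named were all members with every probe, at most 4 genes per direction and list past the unadjusted threshold, the 4 eIF2 kinases and the 4 receptors. Cysteinyl and other tRNA synthetase genes kept the RefSeq symbols of that build. Alternatives were other scaling, background correction, filters, probe rules and tests, the authors' values, the slide row, and leaving out each mouse. Marked spots kept with quantile normalization and a muscle marker covariate were added after seeing the data, as were all alternatives for the wider lists.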

Additional observations from a re-analysis of the deposited data

How the results depend on the processing

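No paired analysis was possible because the labels give the mice of the genotypes different numbers. The 20 alternatives left 0 members past either threshold, by gene or by probe, except that fits without 1 of the mice gave 0 to 1 member lower in KO mice at the unadjusted threshold, by gene and by probe. The exception was *Atf5* without KO3. The median difference of the members by gene was 0.26 within the second row of the slide, where 8 could be tested, 0.17 with the row as a block, 0.03 after quantile normalization, 0.04 with the authors' values, and -0.19 to 0.19 with 1 mouse left out. Of the wider lists, 74 genes were tested in the settings that follow, or 94 with marked spots kept. The count lower in KO mice was 8 with normexp, beside 8.92% of all tested genes, and 8 with the methods' t-test, beside 9.35%. It was 10 with a trended and robust prior, where the share of all genes also rose above 8.82%. With marked spots kept it was 16 of 94, beside 11.1%, and with the row as a block 2, beside 3%. Leaving out 1 mouse gave 3 to 6 lower (3 without WT2, beside 4.81%). The count higher was 0 with the row as a block, beside 5.93%, and 1 to 5 with 1 mouse left out. It was 1 without KO3, beside 8.37%, and 2 without WT1 or without WT3, beside 7.67 and 8.28%. The second row alone holds 1 WT mouse, so no counts of the wider lists are given for it. The cause of these shifts was not tested. Leaving out a mouse moved *Fgf21* between 0.14 and 1.45. Signal over background limits *Fgf21*, the dimmer *Psat1* probe and *Ret*. *Psph* passed the adjusted threshold with a trended and robust prior (limma adjusted p = 0.0194) and among genes above background on all 6 arrays.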
